A study of Mus musculus with 4 samples.

Results

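The genes described here are 41 mouse genes of the cell division cycle and of DNA replication, chosen by name for their known roles. A probe was taken for a member when the annotation of the array pairs it with the member's symbol. By this rule 37 of the 41 members had 67 probes among 25697 on the array, and 4 members (Mki67, Ccnb1, Aurkb and Cdk4) had no probe. The 37 are among 16593 genes with a probe. The members form 3 classes, 13 replication members (all 13 with a probe), 21 mitosis members (18 with a probe) and 7 G1 and regulator members (6 with a probe).

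The study concerns the direct conversion of cells into dopamine neurons with an electromagnetic field. Biotin-labelled RNA was hybridised to 4 Illumina BeadChip arrays. The 4 groups had 1 array each and are labelled Fibroblast, Primary neuron, APNL and APNL+AuEMF. All 4 carried total RNA from mouse cells, and 0.55 ug of it was labelled for each array. The labels spell out neither APNL nor AuEMF. In published reprogramming work the names would stand for a set of delivered transcription factors and for gold particles exposed to an electromagnetic field. The labels give no strain, age, time in culture or brain region of the neurons, and no array stands for gold or field without APNL. Since no group was replicated, no test between groups was possible, and precision is bounded by having so few arrays.

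A dividing cell copies its DNA in S phase and separates the copies in mitosis, and transcription of the genes for each step follows the cycle. Licensing factors such as Cdc6 and Cdt1 load the Mcm helicase ring onto replication origins, and Pcna clamps the polymerases to DNA. Mitotic kinases (Plk1, Aurka), spindle motors (Kif11, Kif23) and the checkpoint protein Bub1b then act on the chromosomes until Cdc20 and Ube2c drive the destruction of cyclins. Neurons leave the cycle for good when they differentiate, while fibroblasts in culture can go on dividing. In a bulk RNA sample, fewer dividing cells and less RNA per dividing cell cannot be told apart.

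The promoters of the 2 main classes differ in sequence, which is shown here because the same classes are compared below. E2F factors bind a site that switches on replication genes, and the cell cycle homology region (CHR), often near CCAAT boxes, is bound by the DREAM and B-Myb complexes of late cell cycle genes. RefSeq promoters (GRCm38.p6, 250 bases before to 50 bases after the annotated start) were searched on both strands for the CHR letters TTTGAA, the box CCAAT, and the E2F letters TTTCCCGC or TTTGGCGC. No letters of one motif contain another of them. Of the 41 members, 33 were in the promoter table and 32 of these had a single promoter. The CHR letters were in 12 of 17 mitosis promoters (70.6%), in 1 of 11 replication promoters (9.09%, the helicase gene Mcm2) and in 18.5% of 22862 promoters of all genes. The E2F letters were in 5 of 11 replication promoters (45.5%), in 0 of 17 mitosis promoters and in 1.61% of all. The CCAAT box was in 15 of 17 mitosis and 7 of 11 replication promoters (88.2% and 63.6%), against 38.2% of all. A match is a description of the letters and does not show that a factor binds there.

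**Figure D1:**
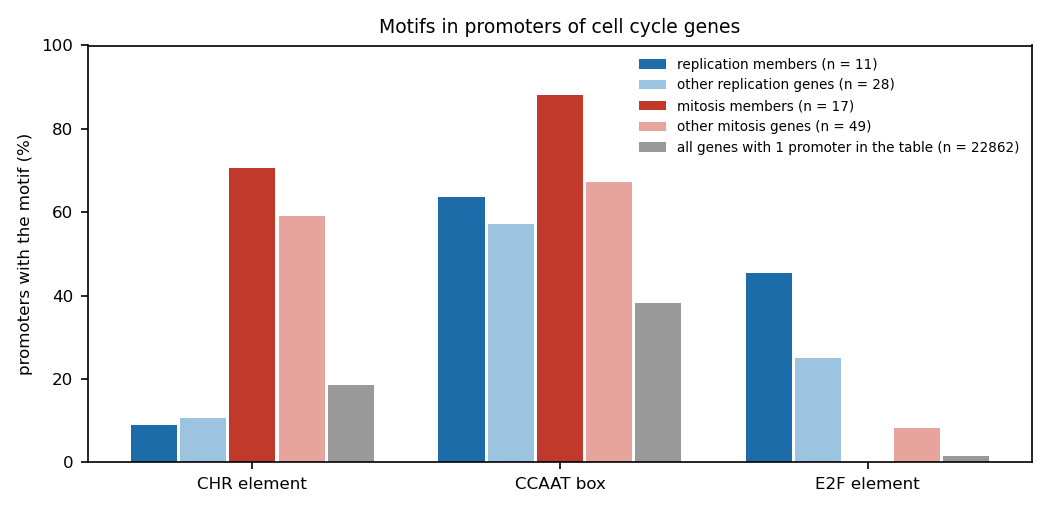
Share of promoters (percent, vertical axis) that hold each motif, for replication and mitosis genes and for all genes with a single promoter in the RefSeq table. The CHR bar of the mitosis members stands at 70.6% and that of the replication members at 9.09%, and the E2F bars at 0% and 45.5%.

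Among members compared between primary neurons and fibroblasts, the CHR letters were in 5 of 5 mitosis promoters of genes at least 2-fold lower in neurons and in 5 of 7 of the other mitosis promoters. The E2F letters were in the promoters of Cdc6 and Cdk2, the lower members outside the mitosis class, and in 4 of 10 replication promoters of genes not 2-fold lower (Mcm3, Mcm5, Mcm6 and Cdt1). To let the sites be read side by side, 30 bases around a site are given 5′ to 3′ along the gene's strand, with the motif in capitals. The first 4 are genes at least 2-fold lower in neurons whose CHR lies within the first 50 bases of the transcript. Cdc20 and Top2a follow, with a CHR before the start and a smaller difference. Position and difference did not go together throughout. Cenpa, not shown, has a CHR within the first 50 bases of the transcript and differed by only -0.26. Ube2c, given further below, has its CHR before the start and was at least 2-fold lower. Cdk2 and Mcm5 carry E2F letters on the reverse strand, as does Top2a the CHR letters shown. Top2a has a further CHR, along the gene's strand, 179 bases before the start.
Plk1 (chr7:122159453-122159482, plus strand): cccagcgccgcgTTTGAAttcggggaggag
Bub1b (chr2:118598231-118598260, plus strand): ctgcgtcaagagacgttaaaTTTGAAactt
Kif23 (chr9:61946780-61946809, minus strand): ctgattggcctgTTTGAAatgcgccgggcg
Aurka (chr2:172370521-172370550, minus strand): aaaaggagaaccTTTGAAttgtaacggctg
Cdc20 (chr4:118437344-118437373, minus strand): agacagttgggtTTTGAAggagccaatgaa
Top2a (chr11:99024195-99024224, minus strand): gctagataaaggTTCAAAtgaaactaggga
Cdk2 (chr10:128705173-128705202, minus strand): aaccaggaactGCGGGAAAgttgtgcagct
Mcm5 (chr8:75109349-75109378, plus strand): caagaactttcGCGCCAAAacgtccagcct

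For 4 members the 150 bases before the start are given whole, with every CHR, CCAAT and E2F match in capitals. Ube2c was at least 2-fold lower in neurons and Cdk1 was not, although both show CCAAT boxes and a CHR close to the start. Cdc6 had the lowest difference of the replication members, with a single E2F match, and Mcm6 has a pair of E2F matches with CCAAT boxes beside them.
Ube2c (chr2:164769779-164769928, plus strand): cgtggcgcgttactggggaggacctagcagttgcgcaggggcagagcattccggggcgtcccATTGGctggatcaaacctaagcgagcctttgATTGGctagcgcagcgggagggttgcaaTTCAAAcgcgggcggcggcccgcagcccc
Cdk1 (chr10:69352913-69353062, minus strand): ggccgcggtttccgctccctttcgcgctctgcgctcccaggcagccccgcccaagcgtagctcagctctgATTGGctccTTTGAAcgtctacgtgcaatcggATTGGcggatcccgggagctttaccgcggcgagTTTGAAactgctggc
Cdc6 (chr11:98908001-98908150, plus strand): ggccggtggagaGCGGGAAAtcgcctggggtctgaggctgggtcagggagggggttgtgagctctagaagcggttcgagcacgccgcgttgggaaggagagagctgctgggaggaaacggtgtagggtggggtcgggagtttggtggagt
Mcm6 (chr1:128359706-128359855, minus strand): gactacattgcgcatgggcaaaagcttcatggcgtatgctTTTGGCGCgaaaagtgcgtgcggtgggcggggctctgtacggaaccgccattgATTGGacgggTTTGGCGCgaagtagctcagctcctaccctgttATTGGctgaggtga

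Levels are log2 intensities after background correction and quantile normalization of the 4 arrays, and values over the arrays are given in the order Fibroblast, APNL, APNL+AuEMF and Primary neuron. Detection of a gene required a detection p under 0.01. Of all probes 41.4%, 42.9%, 45.8% and 47.8% were detected, and the lowest detected levels were 7.13, 6.93, 6.58 and 6.36. Fibroblast markers were detected in 8 of 9 on each array, the primary neuron array included, with summed levels of 16.99, 16.89, 17.09 and 15.67. Neuron markers were detected in 6, 7, 9 and 9 of 11, with summed levels from 12.35 in fibroblasts to 16.04 in primary neurons, and Snap25 and Nefl were not detected on any array. Skeletal muscle markers were detected in 9 of 9 on the first 3 arrays and in 4 of 9 in primary neurons, with summed levels of 15.11, 14.95, 14.06 and 10.50. Macrophage markers were detected in 4, 5, 6 and 5 of 7, with summed levels of 11.61, 11.52, 14.40 and 10.80. Markers of neural progenitors and glia were detected in 4, 5, 6 and 7 of 10, with summed levels from 11.54 in fibroblasts to 13.36 in primary neurons. These marker levels moved with the groups, and their part in the differences below was not tested.

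Cell cycle members were detected on every array, the primary neurons included. Of the 37 members with a probe, 32, 32, 32 and 31 were detected on the 4 arrays. On all of them 30 were detected, as were 7512 of all 16593 genes with a probe. The 4 members detected on no array all belong to mitosis: Bub1, a checkpoint kinase gene, Ccnb2, a B-type cyclin gene, Kif20a, a kinesin gene of cytokinesis, and Cenpe, a kinetochore kinesin gene. Their levels lay between 4.95 and 5.34, so these probes say nothing about how the genes differ between groups. Mcm3, a helicase subunit gene, was the only member detected in APNL+AuEMF and primary neurons but not in fibroblasts or APNL. Ccna2, the A-type cyclin gene of S and G2 phase, showed the opposite, being detected in fibroblasts and APNL alone. Ube2c, the ubiquitin-conjugating enzyme gene of mitotic exit, was not detected in primary neurons.

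**Figure D2:**
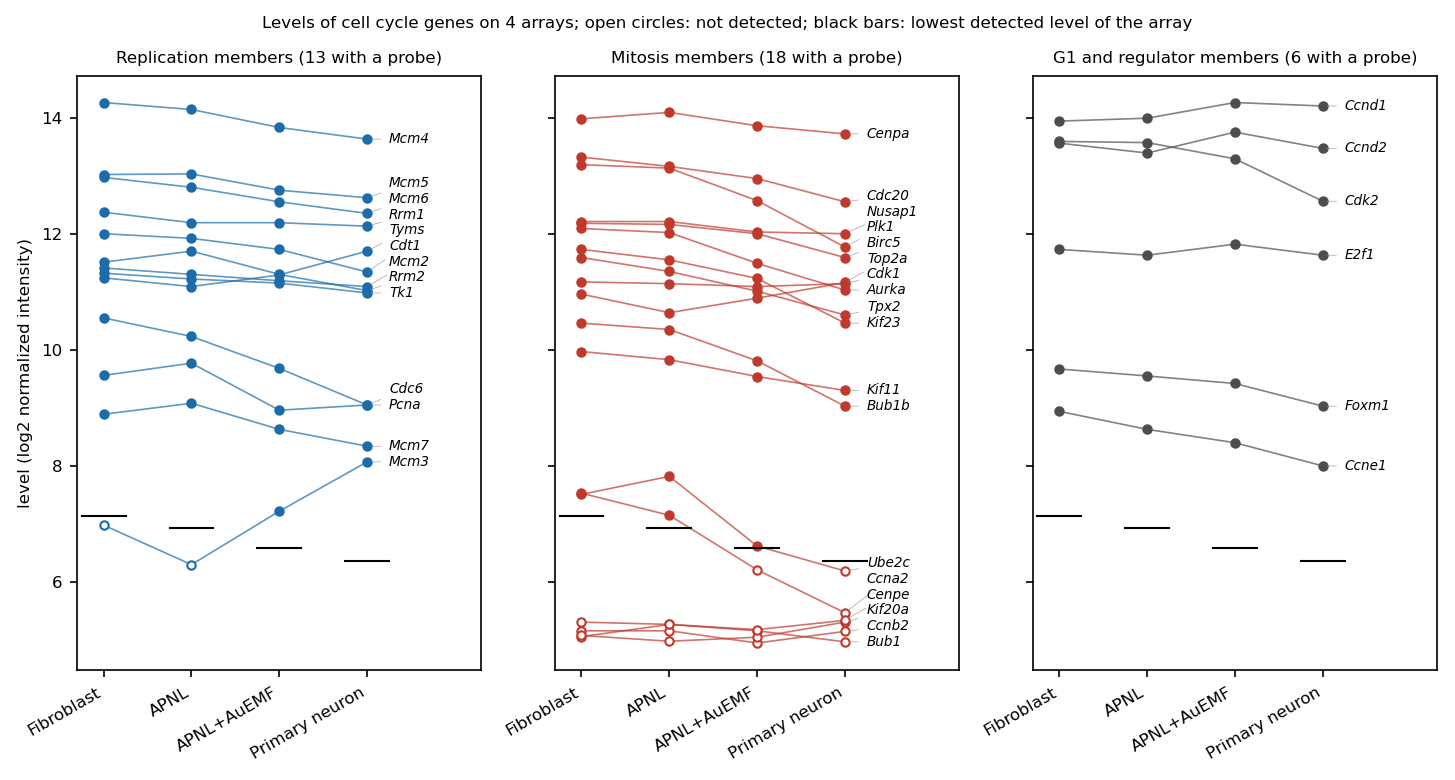
Levels (log2 normalized intensity, vertical axis) of the 37 members with a probe on the 4 arrays, 1 point per gene and array, with lines joining the points of a gene. Filled points are detected and open points are not, and black bars mark each array's lowest detected level, from 7.13 in fibroblasts to 6.36 in primary neurons. Mcm3 goes up to the right, and Ccna2 and Ube2c drop below detection.

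In primary neurons against fibroblasts, mitosis genes were lower and replication genes were lower by less. The median difference was -0.88 over 14 compared mitosis members, -0.49 over 13 replication members and -0.37 over 6 G1 and regulator members, where the median of all 8987 compared genes was -0.10. In all, 8 of 33 members (24.2%) were at least 2-fold lower and 0 were at least 2-fold higher, against 14.9% and 11% of all compared genes. Mcm3 was 2-fold higher under 4 of 9 alternatives, namely both scalings by medians, detection at p under 0.05 and no filter. By class, the lower members were 6 of 14 in mitosis, 1 of 13 in replication and 1 of 6 in G1 and regulation. Values below 0 were found in 29 of the 33 members (87.9%) and in 55% of all compared genes. The mitosis median was below the replication median by 0.39, and under 9 alternative settings this gap ran from -0.52 to -0.14. Among these settings, no background correction and the authors' deposited values are the same values. No test of the gap is possible with 1 array a group.

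Plk1, the polo kinase gene that triggers entry into mitosis, had levels of 13.19, 13.13, 12.57 and 11.77. Its raw intensity went from 8778 in fibroblasts to 3841 in primary neurons. The level was nearly the same on the first 2 arrays and lowest in neurons, 2.68-fold below fibroblasts. Bub1b, the gene of the checkpoint protein BubR1, had levels of 10.46, 10.35, 9.81 and 9.03 and was 2.69-fold lower in neurons. Kif23, a kinesin gene of the central spindle, had levels of 11.73, 11.55, 11.23 and 10.46, a 2.42-fold difference. Aurka, the Aurora A spindle pole kinase gene, had levels of 12.09, 12.02, 11.49 and 11.03 and was 2.09-fold lower. All 4 genes have the same order of arrays, with fibroblasts highest, APNL next to them and primary neurons lowest. Each has only 1 probe on the array.

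Ccna2 had levels of 7.53, 7.15, 6.21 and 5.47 and was at least 2.25-fold lower in neurons, where it was not detected. Ube2c had levels of 7.51, 7.82, 6.62 and 6.19 and was at least 2.21-fold lower. Neither was 2-fold lower without background correction, which gives the authors' deposited values, where Ccna2 measured -0.99 and Ube2c -0.66. With normexp at an offset of 50 or scaling on detected probes neither was called, and with detection required on both arrays neither was compared. Under scaling to a common median their bounds fell short of 2-fold, while the measured differences were -2.11 and -1.16. Both probes are near the detection limit, and Ube2c is highest in APNL instead of fibroblasts. Just short of 2-fold was Tpx2, a spindle assembly factor gene, at 11.59, 11.35, 11.01 and 10.60, a difference of -0.99. Tpx2 was past 2-fold with scaling to a common median, at -1.25, and with scaling on detected probes, at -1.03. Cdc20, the activator gene of the anaphase-promoting complex, differed by -0.77, Kif11, the kinesin gene that pushes spindle poles apart, by -0.67, and Birc5, which encodes survivin, by -0.59. Other probes of Cdc20 gave -0.55, -0.33 and, for one detected on 1 array only, 1.36, and the mean over its probes was -0.07. Under the same scalings as for Tpx2, the probe that stands for Cdc20 was past 2-fold, at -1.28 and -1.06. Other probes of Birc5 gave -0.25 and 0.15, so its direction depends on the probe.

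Some mitosis members differed little in the main setting. Cenpa, the gene of the centromeric histone, had levels of 13.98, 14.09, 13.86 and 13.72, a difference of -0.26 in neurons. Nusap1, a spindle protein gene, differed by -0.21 and Cdk1, the gene of the kinase at the heart of mitotic entry, by -0.04. When arrays were scaled to a common median of all probes, Cenpa stood at -0.85, Nusap1 at -0.65 and Cdk1 at -0.32. The median of all compared genes was then -0.29. With the common median of detected probes these 3 members stood at -0.63, -0.44 and -0.10, where all compared genes had -0.07. Top2a, the DNA topoisomerase gene that untangles sister chromosomes, had levels of 10.96, 10.64, 10.89 and 11.16 and differed by 0.20. This is the only compared mitosis member with a value above 0, and it turned to -0.06 when arrays were scaled to a common median. Cdk1 and Top2a thus stood apart from Plk1, Bub1b and Kif23, although the promoters of all 5 hold the CHR letters.

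Most replication members were lower by less than 2-fold. Cdc6, the licensing factor gene, had levels of 10.55, 10.23, 9.68 and 9.05 and was 2.82-fold lower in neurons. In the main setting Cdc6 was the only replication member past 2-fold by the probe that stands for its gene. Cdt1, the partner of Cdc6, had levels of 12.00, 11.92, 11.73 and 11.34, a difference of -0.66. With scaling to a common median the Cdt1 difference was -1.04, and on detected probes -0.82. Both genes were highest in fibroblasts and lowest in neurons. Among the helicase subunits detected in fibroblasts, Mcm4 differed by -0.63, Mcm6 by -0.62, Mcm7 by -0.55, Mcm5 by -0.41 and Mcm2 by -0.32. The 5 subunits thus went the same way by less than 2-fold, but with scaling to a common median Mcm4 at -1.20 and Mcm6 at -1.10 were past it. Other Mcm6 probes detected on all arrays gave -0.26 and 0.33. The mean over a gene's probes was 0.03 for Mcm6 and -0.11 for Mcm4. Both means include probes detected on no array, and Mcm4 has no other detected probe. Pcna had levels of 9.56, 9.77, 8.96 and 9.05, a difference of -0.51. Of the nucleotide supply genes, the ribonucleotide reductase subunits Rrm2 and Rrm1 differed by -0.49 and -0.24, and the thymidine kinase gene Tk1 by -0.34. A further Tk1 probe detected on all arrays gave -1.11, past 2-fold.

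A pair of replication members went the other way. Mcm3 had levels of 6.98, 6.30, 7.22 and 8.07 and was at least 1.92-fold higher in neurons than the lowest detected level in fibroblasts. Its raw intensity was 207, 180, 282 and 472. Tyms, the thymidylate synthase gene, had levels of 11.24, 11.09, 11.29 and 11.70, a difference of 0.45. A further Tyms probe detected on all arrays gave 0.03, so the size of the Tyms difference depends on the probe. The mean over all Tyms probes was -0.11, but it includes probes detected on no array, such as a probe at -1.15. Mcm3 has 1 probe, and its 5 partners in the helicase ring did not share its direction by the probes that stand for them. A further Mcm6 probe detected on all arrays did, at 0.33.

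**Figure D3:**
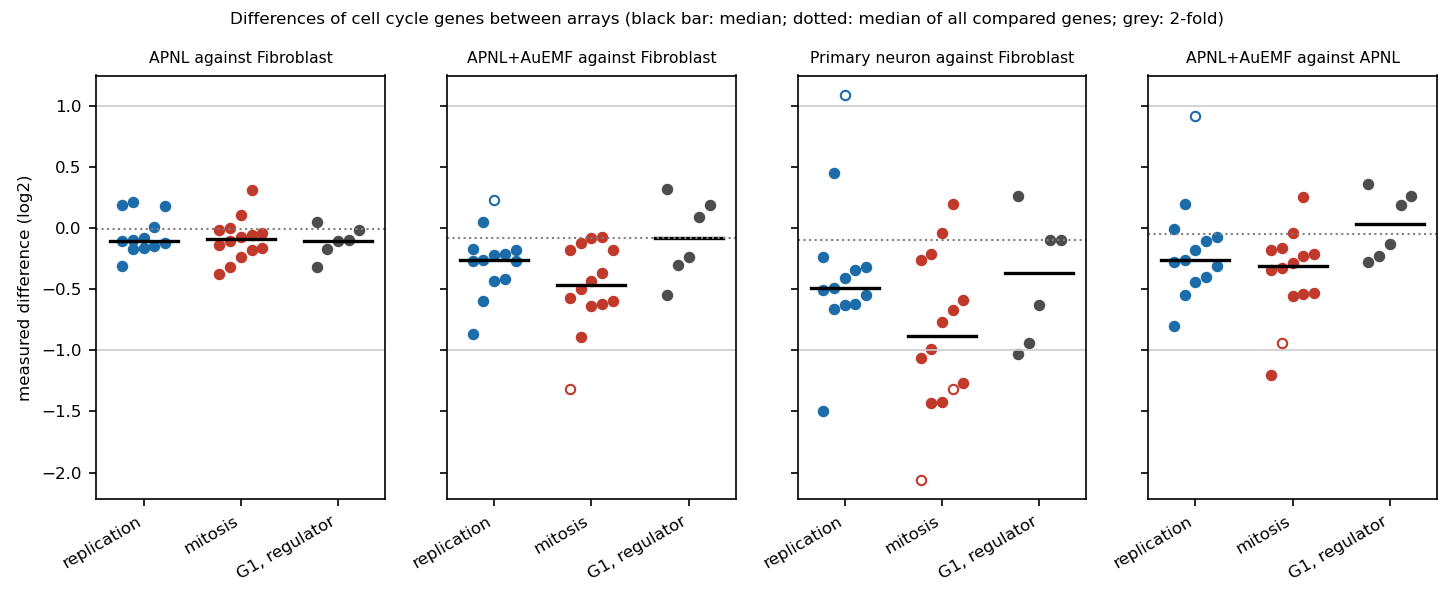
Measured differences (log2, vertical axis) of the compared members in 4 comparisons, 1 point per gene, by class. Open points were detected on 1 of the 2 arrays, black bars are class medians, the dotted line is the median of all compared genes and grey lines mark 2-fold. In primary neurons the mitosis median lies at -0.88 and the replication median at -0.49, and in APNL the medians lie at -0.09 and -0.11.

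Of the G1 and regulator members, Cdk2, the kinase gene of the G1 to S step, had levels of 13.59, 13.57, 13.29 and 12.56 and was 2.04-fold lower in neurons. Ccne1, its cyclin E partner gene, had levels of 8.94, 8.63 and 8.40 on the first 3 arrays and was lowest in neurons, a difference of -0.94. Foxm1, the gene of a transcription factor of mitotic genes, had levels of 9.67, 9.55, 9.42 and 9.03, a difference of -0.63. These 3 were lowest in neurons, while in the main setting the D-type cyclin genes and E2f1 were not lower in the same way. Ccnd1, whose product joins growth signals to the cycle, had levels of 13.94, 13.99, 14.26 and 14.20, a difference of 0.26 that became -0.34 when arrays were scaled to a common median of all probes and -0.12 with that of detected probes. Ccnd2 and E2f1, the gene of an activator of replication genes, both differed by -0.10. When arrays were scaled to a common median of all probes they stood at -0.63 and -0.46, where Foxm1 was at -0.63. With that of detected probes they stood at -0.41 and -0.24, where Foxm1 was at -0.41. Their contrast with Foxm1 thus depends on the scaling.

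How well a probe measures its gene can be read from 9 members with at least 2 probes detected on all arrays. In primary neurons against fibroblasts the probes of a gene spread over a median range of 0.44, and 2 of the 9 genes had probes of opposite sign (Birc5 and Mcm6). Cdk2 had the widest range, 0.96, with probes at -1.03, -0.86 and -0.07. With the mean of a gene's probes neither Cdk2 nor Cdc6 was 2-fold lower, while Plk1, Bub1b, Kif23, Aurka, Ccna2 and Ube2c were. The 3 undetected Cdc6 probes enter that mean.

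**Figure D4:**
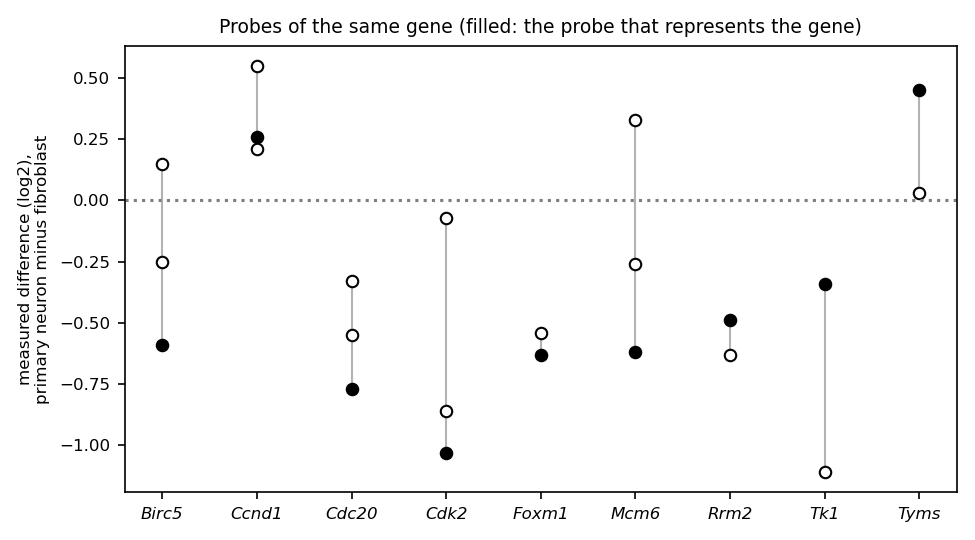
Measured difference between primary neurons and fibroblasts (log2, vertical axis) for each probe detected on all 4 arrays, for the 9 members with at least 2 such probes. Filled points are the probes that represent the gene. The probes of Foxm1 lie close together, and those of Cdk2 run from -1.03 to -0.07.

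Further genes of the same pathway were compared as well. Of 35 other replication genes, 4 (11.4%) were at least 2-fold lower in primary neurons and 0 higher, with a median of -0.47. That share lower is below the 14.9% of all compared genes. The lower ones were the origin recognition genes Orc3 at -1.30 and Orc4 at -1.07, the cohesion factor gene Dscc1 at -1.29 and the primase gene Prim1 at -1.09. Of 42 other mitosis genes, 10 (23.8%) were at least 2-fold lower, 2 (4.76%) higher and 30 neither, with a median of -0.73. Anln, the anillin gene of the cleavage furrow, had levels of 13.94, 13.73, 13.21 and 12.10, a difference of -1.84. Dlgap5, a spindle protein gene, differed by -1.65, and Ttk, the checkpoint kinase gene also called Mps1, was at least 2.89-fold lower. Hmgb2, a chromatin protein gene, was among the 2 higher genes, with levels of 9.06, 8.92, 9.41 and 10.57. Of 18 other regulators 1 (5.56%) was 2-fold lower, the ubiquitin ligase gene Skp2 at -1.06, and the median was -0.30. As with the members, the mitosis list had the lower median.

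**Figure D5:**
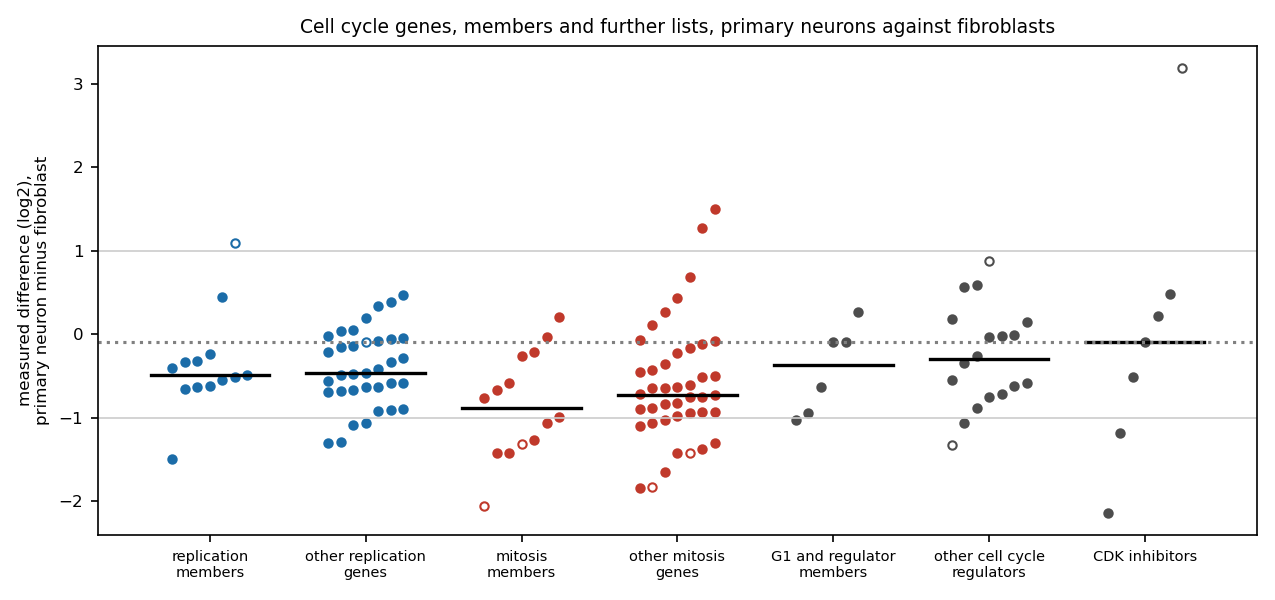
Measured difference between primary neurons and fibroblasts (log2, vertical axis) for the compared members of each class beside further genes of the same step, 1 point per gene. Open points were detected on 1 of the 2 arrays, black bars are medians (-0.49 and -0.47 for replication, -0.88 and -0.73 for mitosis), the dotted line is the median of all compared genes at -0.10, and grey lines mark 2-fold.

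In APNL against fibroblasts no compared member was 2-fold apart. Of 32 compared members 0 were at least 2-fold lower and 0 higher, where 0% of all compared genes were lower and 1.55% higher. The medians were -0.11 for replication, -0.09 for mitosis and -0.11 for G1 and regulator members, against -0.01 for all 8242 compared genes. Values below 0 were found in 25 of 32 members and in 53.6% of all genes. The lowest member was Ccna2 at -0.38, followed by Top2a and Ccne1, both at -0.32, and Cdc6 at -0.31. The highest was Ube2c at 0.31, with Pcna at 0.21, Rrm2 at 0.19 and Mcm7 at 0.18. The replication class thus held values on both sides of 0, 8 below and 4 above. No further replication gene (34 compared), mitosis gene (42) or regulator (17) was 2-fold apart, and Prim1 and Dlgap5 were lowest, both at -0.58.

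In APNL+AuEMF against fibroblasts mitosis members were again the lower class, by less than in neurons. The medians were -0.47 for mitosis, -0.26 for replication and -0.08 for G1 and regulator members, against -0.08 for all 8675 compared genes. Of 33 compared members 0 were at least 2-fold lower or higher, against 1.68% lower and 5.22% higher among all genes. With arrays scaled on the detected probes those shares were 0.772% and 6.48%, and the member count stayed at 0. All 14 compared mitosis members had values below 0, as did 58.2% of all genes, and 13 of the 14 were below the median of all genes. Macrophage markers were highest on this array, and their part in these differences was not tested. The gap between the class medians, -0.21, ran from -0.29 to -0.03 under the alternatives.

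In the main setting Ube2c differed most among mitosis members detected on both arrays, by -0.89, and Ccna2 was at least 1.93-fold lower. The rank of Ube2c depends on the setting. In the authors' deposited values Ube2c stood at -0.47 and Plk1 at -0.61. With scaling to a common median Ube2c stood at -0.72 and Plk1 at -0.85. The levels given above put Bub1b at -0.64, Plk1 at -0.62, Aurka at -0.60 and Tpx2 at -0.57. All 4 genes have a single probe, and each value rests on 1 array a group. Cdc6 at -0.87 and Pcna at -0.60 were the lowest replication members, followed by Mcm4 at -0.43 and Mcm6 at -0.42. Plk1 in APNL+AuEMF stood at 65.0% of its fibroblast level and Cdc6 at 54.9%, against 37.3% and 35.4% in primary neurons, and these comparisons share the fibroblast array. On the other side, Ccnd1 was at 0.32, Ccnd2 at 0.19 and E2f1 at 0.09, of which the last 2 fell below 0 when arrays were scaled to a common median. Among further genes, Prim1 at -1.15, the spindle protein gene Aspm at -1.20 and Ttk at -1.04 were 2-fold lower. The medians were -0.32 for 35 further replication genes and -0.34 for 42 further mitosis genes, so these lists hardly showed the gap of the members.

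Adding AuEMF to APNL went with lower values in both classes, with 1 member past 2-fold. Ube2c differed by -1.20, the only one of 33 compared members at least 2-fold lower, and 0 were higher, against 0.759% lower and 3.14% higher among all 8700 compared genes. With scaling on the detected probes those shares were 0.184% and 4.31%. The medians were -0.31 for mitosis, -0.26 for replication and 0.03 for G1 and regulator members, where all genes had -0.05. Ube2c was not 2-fold lower without background correction, which gives the authors' deposited values, or with normexp at an offset of 50. The mitosis and replication medians differed by -0.05, and this gap changed sign under 1 of 9 alternatives. Pcna was the lowest replication member at -0.80, from 9.77 to 8.96, followed by Cdc6 at -0.55 and Mcm7 at -0.44. Plk1 at -0.56, Bub1b at -0.54 and Aurka at -0.53 were close to each other. Values above 0 were those of Ccnd2 at 0.36, Ccnd1 at 0.26, Top2a at 0.25, Tyms at 0.20 and E2f1 at 0.19, and Mcm3 was at least 1.22-fold higher. Among further genes Pttg1, the securin gene, was lower by -1.15, and 37 of 42 mitosis and 32 of 35 replication genes had values below 0, against 56.5% of all genes.

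Primary neurons were lower than APNL by nearly as much as they were lower than fibroblasts. Of 33 members 6 were at least 2-fold lower (Plk1, Bub1b, Kif23, Ube2c, Cdc6 and Cdk2) and 1 was higher (Mcm3, at least 2.21-fold), against 12.7% and 10.7% of all compared genes. The medians were -0.68 for mitosis and -0.46 for replication, where all genes had -0.08, and 27 of 33 members had values below 0, against 54.3% of all genes. The count of 7 members 2-fold apart was 4 without background correction, which gives the authors' deposited values, and with normexp at an offset of 50. In these settings Mcm3, Ube2c and Cdk2 were no longer called. With scaling to a common median the count was 12. Against APNL+AuEMF, 0 of 32 members were 2-fold lower or higher, where 7.42% and 6.74% of all genes were. There the medians were -0.40 for mitosis and -0.17 for replication, with Plk1 at -0.80, Bub1b at -0.78, Kif23 at -0.77 and Cdk2 at -0.72 the lowest and Mcm3 at 0.85 the highest. Values below 0 were found in 27 of 32 members and in 52.9% of all genes.

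The levels of many members followed the same order of arrays. Of the 30 members detected on all arrays, 19 (63.3%) were highest in fibroblasts, then APNL, then APNL+AuEMF, and lowest in primary neurons, an order found in 26% of the 7512 genes detected on all arrays. It held for 9 of 12 mitosis members, 7 of 12 replication members and 3 of 6 G1 and regulator members. Among further genes it held for 20 of 40 mitosis genes and 15 of 34 replication genes, but for 3 of 16 regulators. Of the same 30, Pcna, Mcm5, Mcm7, Rrm2 and Cenpa were highest in APNL, by at most 0.21 over fibroblasts. Some single steps of the order were small, such as Plk1 from fibroblasts to APNL at -0.06.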

How the data were processed

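For each of 4 arrays the authors deposited linear probe intensity, without normalization between arrays. Each deposited detection p-value is a multiple of 1 in 798. The authors' deposited log2 values equalled quantile-normalized log2 intensity to within 5e-07. GenomeStudio 2011.1 is named, per the submitters' processing notes; its background setting is not given in the sources used here. Levels were computed with neqc of limma 3.58.1 (R 4.3.3, offset 16, control parameters inferred from detection p-values). Where a gene had several probes, the one of highest mean level stood for it. A gene was compared when detected (p under 0.01) on at least 1 of 2 arrays, and an undetected level was replaced by the array's lowest detected level where that was higher. Called means 2-fold or more. List medians use measured values. Steps were tested on simulated data. Members and lists were chosen with earlier results of these data known. Named are all members, and up to 4 further genes of each list with the largest differences. Tables and figures used Python 3.11.15, pandas 2.3.3 and matplotlib 3.10.9.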

Additional observations from a re-analysis of the deposited data

How the results depend on the processing

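With 1 array a group, leaving out a replicate is not possible, and no paired analysis was possible because each group has 1 array. Counts and medians were recomputed under 9 settings of processing, and counts also at 1.5-fold and 3-fold. Values without background correction equal the authors' deposited values to within 5e-07, so these settings repeat each other. Scaling over detected probes was added after seeing the data. Of 236 values 217 moved by at most 1.5-fold, which for class medians was taken as a shift in level. All class medians were among them. Most class medians were themselves smaller than such a shift, so this limit could hardly mark them as moved. The replication median of APNL+AuEMF against APNL, -0.26, ran from -0.39 to -0.11, and the G1 and regulator median, 0.03, from -0.06 to 0.11. Scaling to a common median put the median of all genes at -0.29 in primary neurons against fibroblasts. Relative to it replication members were at -0.39 and mitosis members at -0.91, against -0.39 and -0.78 in the main setting. The other 19 values are counts of members 2-fold apart. Primary neurons against APNL had 7, which became 4 without background correction, with normexp at an offset of 50 and in the authors' deposited values, 12 with scaling to a common median, 16 at 1.5-fold and 0 at 3-fold. APNL+AuEMF against APNL had 1, and 0 without background correction, with that normexp fit, in the deposited values and at 3-fold, and 2 at 1.5-fold. APNL+AuEMF against fibroblasts had 0, and 1 at a detection p under 0.05 and with no filter, and 7 at 1.5-fold. Primary neurons against APNL+AuEMF had 0, and 1 under either scaling and 6 at 1.5-fold. Primary neurons against fibroblasts had 8, and 18 at 1.5-fold and 0 at 3-fold. The causes were not tested.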

Other observations

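The CDK inhibitor genes, which hold cells out of the cycle, did not move as a group. Of 7 compared between primary neurons and fibroblasts 1 (14.3%) was at least 2-fold higher, 2 (28.6%) lower and 4 neither, against 11% higher and 14.9% lower among all compared genes. Cdkn2a, the Ink4a and Arf gene, had levels of 6.65, 7.98, 9.50 and 9.85 in fibroblasts, APNL, APNL+AuEMF and primary neurons and was not detected in fibroblasts. It was at least 6.58-fold higher in primary neurons and at least 5.19-fold higher in APNL+AuEMF than in fibroblasts, and 2.88-fold higher in APNL+AuEMF than in APNL. Cdkn1c, the p57 gene, ran the other way, at 15.03, 14.98, 14.41 and 12.89. Cdkn1a, the p21 gene, had levels of 13.25, 13.20, 13.66 and 13.48, with no pair of arrays 2-fold apart.

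Of 40 further mitosis genes detected on all arrays, 6 were highest in primary neurons and 31 lowest there, against 33.7% and 49.9% of all genes detected on all arrays. Hmgb2, among the 6, was 2.83-fold higher there than in fibroblasts and 2.23-fold higher than in APNL+AuEMF. Lmnb1, the lamin B1 gene, had levels of 11.42, 11.79, 11.70 and 12.69.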
